A study of Homo sapiens with 8 samples.

Results

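The genes described here are 9 members of the epidermal growth factor (EGF) receptor system: the receptors EGFR, ERBB2 and ERBB3 and the ligands TGFA, EREG, AREG, HBEGF, EPGN and NRG1. They were taken by gene symbol from tables that list 23686 genes, with earlier results of these data known, and all 9 were listed. The tables come from RNA sequencing of Hs578T and MDA-MB-231, established human cell lines from triple-negative breast cancer, a class defined by the lack of oestrogen and progesterone receptors and of ERBB2 amplification. For each line there were 2 control libraries and 2 in which GPX1, an antioxidant enzyme that reduces hydrogen peroxide with glutathione, had been depleted, which makes 4 groups. The titles of the depleted samples name an siRNA against GPX1, while their genotype tag reads Gpx1-/-, and they are called siGPX1 here. The labels state neither the kind of control, the number of siRNAs nor the time after transfection, and each line stands for itself alone as a model of this cancer.

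EGF receptors are tyrosine kinases at the cell surface that pair when a ligand binds and then signal through the RAS-ERK and PI3K cascades. EGFR binds TGFA, AREG, EREG, HBEGF and EPGN, ERBB3 binds NRG1 and has little kinase activity of its own, and ERBB2 has no known ligand and serves as the preferred partner of the others. The ligands are made as membrane-bound precursors and are released by surface proteases, and EGFR is often abundant in triple-negative breast cancer, where a ligand made by the tumour cell can act on that same cell.

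GPX1 itself was lower in every siGPX1 library. In TPM, a unit of estimated reads per transcript length scaled to a fixed library total, it stood at 232 and 232 in the Hs578T controls against 9.52 and 9.02 after depletion, and at 594 and 634 against 21.8 and 20.4 in MDA-MB-231. The libraries held 12905808 to 14216365 estimated read counts. No label says that libraries of a group came from separate cultures, so the p-values below reflect a spread among libraries that may be no more than technical. Both lines are labelled epithelial. MDA-MB-231 controls carried EPCAM at 32.2 TPM but CDH1, the epithelial cadherin, at 0.445, and Hs578T controls carried EPCAM at 0.11 and CDH1 at 0. The epithelial keratins KRT18, KRT8 and KRT7 stood at 322, 26.7 and 10.5 TPM in control Hs578T and at 596, 678 and 721 in control MDA-MB-231. In the same order, KRT19 stood at 0.255 and 444 TPM, CLDN4 at 0.935 and 158 and ESRP1 at 0.13 and 0.05. VIM, a mesenchymal filament protein, stood at 5840 and 2167 TPM and ZEB1 at 47.7 and 40.6. The other mesenchymal markers were far lower in control MDA-MB-231: FN1 at 10879.5 and 212, CDH2 at 285 and 0.475, and SPARC at 2476 and 0.775. Of the basal markers, KRT14 stood at 37.2 and 0.11, KRT17 at 111 and 0.965, TP63 at 1.79 and 0.375 and KRT5 at 0 and 0.075. ESR1 and PGR, the hormone receptors, summed to at most 1.02 TPM in any library, and of the leukocyte markers CD3E was listed at 0 in all groups and PTPRC stood at or below 0.15 TPM on average, while CD14 averaged 7.57 and 9.31 TPM in control and siGPX1 Hs578T and 6.33 and 12.93 TPM in MDA-MB-231.

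Of the 6 ligands, EPGN, EREG and AREG are neighbours on chromosome 4, in that order, with unlike levels: EPGN was near 0 in both lines, while EREG and AREG were abundant in MDA-MB-231 alone, where EREG fell after GPX1 depletion and AREG did not pass the test. The 250 bases before their starts are shown because these neighbours differ so much in level, with HBEGF, a ligand present in both lines, beside them. The sequences are those of RefSeq on GRCh38.p14, matched by symbol, for 7 of the 9 members. Capitals mark TATAAA, the core of a TATA box, TGACGTCA, the palindromic cyclic AMP response element, and GGGCGG, the core of a GC box, each searched on both strands together with TGANTCA, the AP-1 element. Matches can overlap, as 2 of the GC boxes of HBEGF do. The intervals are chr4:74308220-74308469 for EPGN, chr4:74364895-74365144 for EREG and chr4:74444886-74445135 for AREG, all on the plus strand, and chr5:140346604-140346853 for HBEGF, on the minus strand.
EPGN: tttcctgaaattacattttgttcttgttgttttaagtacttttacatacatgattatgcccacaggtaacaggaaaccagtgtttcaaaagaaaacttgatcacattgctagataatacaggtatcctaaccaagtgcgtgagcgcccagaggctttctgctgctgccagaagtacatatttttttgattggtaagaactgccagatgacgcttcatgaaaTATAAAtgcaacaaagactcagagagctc
EREG: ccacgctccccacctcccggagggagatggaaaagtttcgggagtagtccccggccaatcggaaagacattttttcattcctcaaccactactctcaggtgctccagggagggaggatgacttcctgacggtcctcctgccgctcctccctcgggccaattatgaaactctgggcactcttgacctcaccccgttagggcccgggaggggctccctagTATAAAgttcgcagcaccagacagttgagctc
AREG: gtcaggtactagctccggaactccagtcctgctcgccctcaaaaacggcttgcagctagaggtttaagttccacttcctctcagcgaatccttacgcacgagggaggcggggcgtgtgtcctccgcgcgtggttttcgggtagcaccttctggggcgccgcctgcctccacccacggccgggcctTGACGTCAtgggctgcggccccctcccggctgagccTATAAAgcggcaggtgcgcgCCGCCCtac
HBEGF: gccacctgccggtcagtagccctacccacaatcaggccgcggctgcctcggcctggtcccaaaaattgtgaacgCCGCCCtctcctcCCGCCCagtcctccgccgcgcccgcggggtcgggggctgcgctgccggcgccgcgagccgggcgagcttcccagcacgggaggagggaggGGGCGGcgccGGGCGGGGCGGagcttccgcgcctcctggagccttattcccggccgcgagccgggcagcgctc

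All 3 neighbours carry TATAAA just upstream of the start, with its first base at -29 in EPGN, -32 in EREG and -29 in AREG, counted from the gene start. TATAAA occurs in 11.5% of 35116 promoter windows of 300 bases (250 before to 50 after the start). AREG alone among the matched members also carries TGACGTCA, at -65, an element found in 1.85% of windows. HBEGF has no TATAAA and 5 matches to GGGCGG, the TGFA promoters have 4 and 0, the EGFR promoter richest in GC has 3 and the second 0, while EPGN and EREG have 0; 44.95% of windows hold at least 1. GC content of the window was 37.7% in EPGN, 57.7% in EREG, 66.3% in AREG and 75.0% in HBEGF. TGANTCA occurred in ERBB2, once, and in the second EGFR promoter, in 2 places, against 7.71% of windows. That second promoter also holds TATAAA at -146 and -36. These motifs were chosen after the values had been seen. A match is a description of the letters and no evidence of binding, and the lack of one says nothing about a factor.

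EGFR, the receptor of 5 of the 6 ligands, was present in both lines and higher in MDA-MB-231. Its level was 26.4 and 27.7 TPM in the Hs578T controls and 27.6 and 23.8 in the Hs578T siGPX1 libraries, so the groups overlapped. In MDA-MB-231 it was 82.9 and 80.7 TPM in the controls and 97.2 and 88.3 after depletion, both above the controls. The control lines differed 2.76-fold (log2 difference 1.46 ± 0.06, SE; adjusted p = 2e-12, quasi-likelihood test in edgeR, adjusted by Benjamini-Hochberg over all 14249 genes tested, as throughout).

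After GPX1 depletion EGFR rose 1.13-fold in MDA-MB-231 (log2 change 0.18 ± 0.05; adjusted p = 0.0107). That call depended on the data and the fit: without siGPX1 library 1 of this line the change was 0.15 (adjusted p = 0.0867), without siGPX1 library 2 it was 0.30, and on log2(TPM + 1) with limma the adjusted p was 0.1. In Hs578T the log2 change was -0.04 (95% interval -0.24 to 0.15; adjusted p = 0.634). The change in MDA-MB-231 minus that in Hs578T was 0.22 (interval -0.02 to 0.46; adjusted p = 0.0914), which passed with DESeq2 size factors (0.28, adjusted p = 0.0375), with a stricter filter on low counts, and without siGPX1 library 1 of Hs578T or library 2 of MDA-MB-231 (adjusted p = 0.00856 and 0.015).

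ERBB2, the receptor that pairs with the others, differed least between the lines among the members tested. It measured 32.8 and 30.9 TPM in the Hs578T controls, 35.2 and 32.4 after depletion there, 39.3 and 41.6 in the MDA-MB-231 controls, and 45.03 and 42.47 after depletion. Its log2 change was 0.13 in Hs578T (interval -0.05 to 0.31; adjusted p = 0.105) and 0.10 in MDA-MB-231 (interval -0.06 to 0.27; adjusted p = 0.187), and the latter passed with the stricter filter (0.16, adjusted p = 0.0423). The difference between the control lines was 1.16-fold (adjusted p = 0.00545) and was lost with DESeq2 (adjusted p = 0.0759), with the stricter filter (0.0536), without Hs578T control library 2 (0.0503) and without MDA-MB-231 control library 2 (0.191).

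ERBB3, the receptor of NRG1, was scarce everywhere. The Hs578T libraries held 8, 0, 1 and 5 counts, too few for a change to be measured. In MDA-MB-231 the controls held 82 and 82 counts (2.91 and 2.43 TPM) and the siGPX1 libraries 58 and 63 (1.81 and 2.42 TPM). The fitted control level was 17.0-fold higher in MDA-MB-231 (log2 difference 4.09 ± 0.48), given with no test because ERBB3 passed the filter on low counts through that line alone, and a size that rests on the 8 counts of Hs578T control library 1. Without that library the Hs578T controls held 0 counts, and without control library 2 the log2 difference was 3.13. The log2 change after depletion in MDA-MB-231 was -0.35 with a wide interval of -1.16 to 0.46 (adjusted p = 0.367), so a change of this size was not detectable at this depth. ERBB4, the remaining receptor of the family and not among the 9, held 0 to 3 counts per library.

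HBEGF, the heparin-binding ligand that also serves as the diphtheria toxin receptor, fell in both lines. Its level in Hs578T went from 17.6 and 21.2 TPM to 9.92 and 11.9, and in MDA-MB-231 from 118 and 109.8 TPM to 75.9 and 69.8. Both siGPX1 libraries lay below both controls in each line. The fall was 1.71-fold in Hs578T (log2 change -0.77 ± 0.12; adjusted p = 7.41e-05) and 1.57-fold in MDA-MB-231 (-0.65 ± 0.07; adjusted p = 2.57e-06). Over 16 other settings and left-out libraries the log2 change stayed between -0.93 and -0.64 in Hs578T and between -0.66 and -0.54 in MDA-MB-231, and it passed the test in each. The difference of the falls was 0.12 (interval -0.27 to 0.52; adjusted p = 0.626). Despite the shared fall, control MDA-MB-231 held 5.34-fold more HBEGF than control Hs578T (adjusted p = 4.07e-13), and its depleted libraries remained above every Hs578T library. In bulk libraries such as these, a change in every cell and a change in the share of cells that express a gene cannot be told apart.

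EREG, or epiregulin, an EGFR ligand of low affinity and long signalling, was a gene of MDA-MB-231 in these data. It stood at 52.2 and 48.0 TPM in the MDA-MB-231 controls and at 29.7 and 29.7 after depletion, a fall of 1.70-fold (log2 change -0.76 ± 0.06; adjusted p = 1.68e-07), the largest among the members of that line. Hs578T held 0 and 0 counts in the controls and 1 and 0 after depletion. Against a floor of 3 counts over the Hs578T control group, the MDA-MB-231 controls were at least 757-fold higher.

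TGFA, the ligand most like EGF itself in its action on EGFR, was likewise listed at 0 in all 4 Hs578T libraries. In MDA-MB-231 it measured 96.2 and 93.2 TPM in the controls and 73.3 and 76.1 after depletion, with no overlap. The fall was 1.27-fold (log2 change -0.35 ± 0.05; adjusted p = 7.28e-05), and limma on log2(TPM + 0.1) did not call it (adjusted p = 0.087). Control MDA-MB-231 held at least 1332-fold more TGFA than control Hs578T, on the same floor.

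AREG, or amphiregulin, was abundant in MDA-MB-231 and kept most of its level. It stood at 105 and 109 TPM in the controls and at 98.8 and 101.8 after depletion. Both depleted libraries lay below both controls, by a log2 change of -0.10 that missed the threshold (interval -0.28 to 0.07; adjusted p = 0.22). Without MDA-MB-231 control library 2 the change was -0.015, the smallest of 16 alternatives. Hs578T held 0, 1, 1 and 1 counts, and the ratio of the control lines, 1476 counts against 1, was 1256 with a 95% counting interval of 225 to 49641. The human genome build of these files carries a near-identical second AREG copy that the tables do not list as a gene of its own, so the AREG value is for the shared sequence. EPGN, or epigen, the last ligand of EGFR in the set, held 0 to 2 counts per library, was removed by the filter on low counts, and was not tested.

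Among the ligands of the set, of which EPGN was not tested, NRG1, or neuregulin 1, the ligand of ERBB3, alone was called as rising. It went from 20.1 and 17.4 TPM to 25.7 and 28.8 in Hs578T, and from 46.7 and 45.8 TPM to 50.6 and 50.2 in MDA-MB-231, without overlap in either line. The rise was 1.51-fold in Hs578T (log2 change 0.60 ± 0.09; adjusted p = 3.73e-05) and 1.16-fold in MDA-MB-231 (0.21 ± 0.07; adjusted p = 0.0212). The rise in Hs578T passed in all 16 alternatives, with values between 0.48 and 0.69. In MDA-MB-231 it was lost with DESeq2 (adjusted p = 0.127) and with limma on TPM, where it was 0.12 (adjusted p = 0.255). Control MDA-MB-231 held 2.15-fold more NRG1 than control Hs578T (adjusted p = 3.24e-09).

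The change of NRG1 in MDA-MB-231 minus that in Hs578T was -0.39 ± 0.11 (adjusted p = 0.026), the only member whose change passed the test of a difference between the lines. It passed in 5 of 15 alternatives. Left-out libraries that ended the call were Hs578T control 2 (adjusted p = 0.19) and siGPX1 2 (0.13), MDA-MB-231 control 1 (0.137), control 2 (0.207), siGPX1 1 (0.198) and siGPX1 2 (0.163), and the value stayed between -0.47 and -0.27 throughout.

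**Figure D1:**
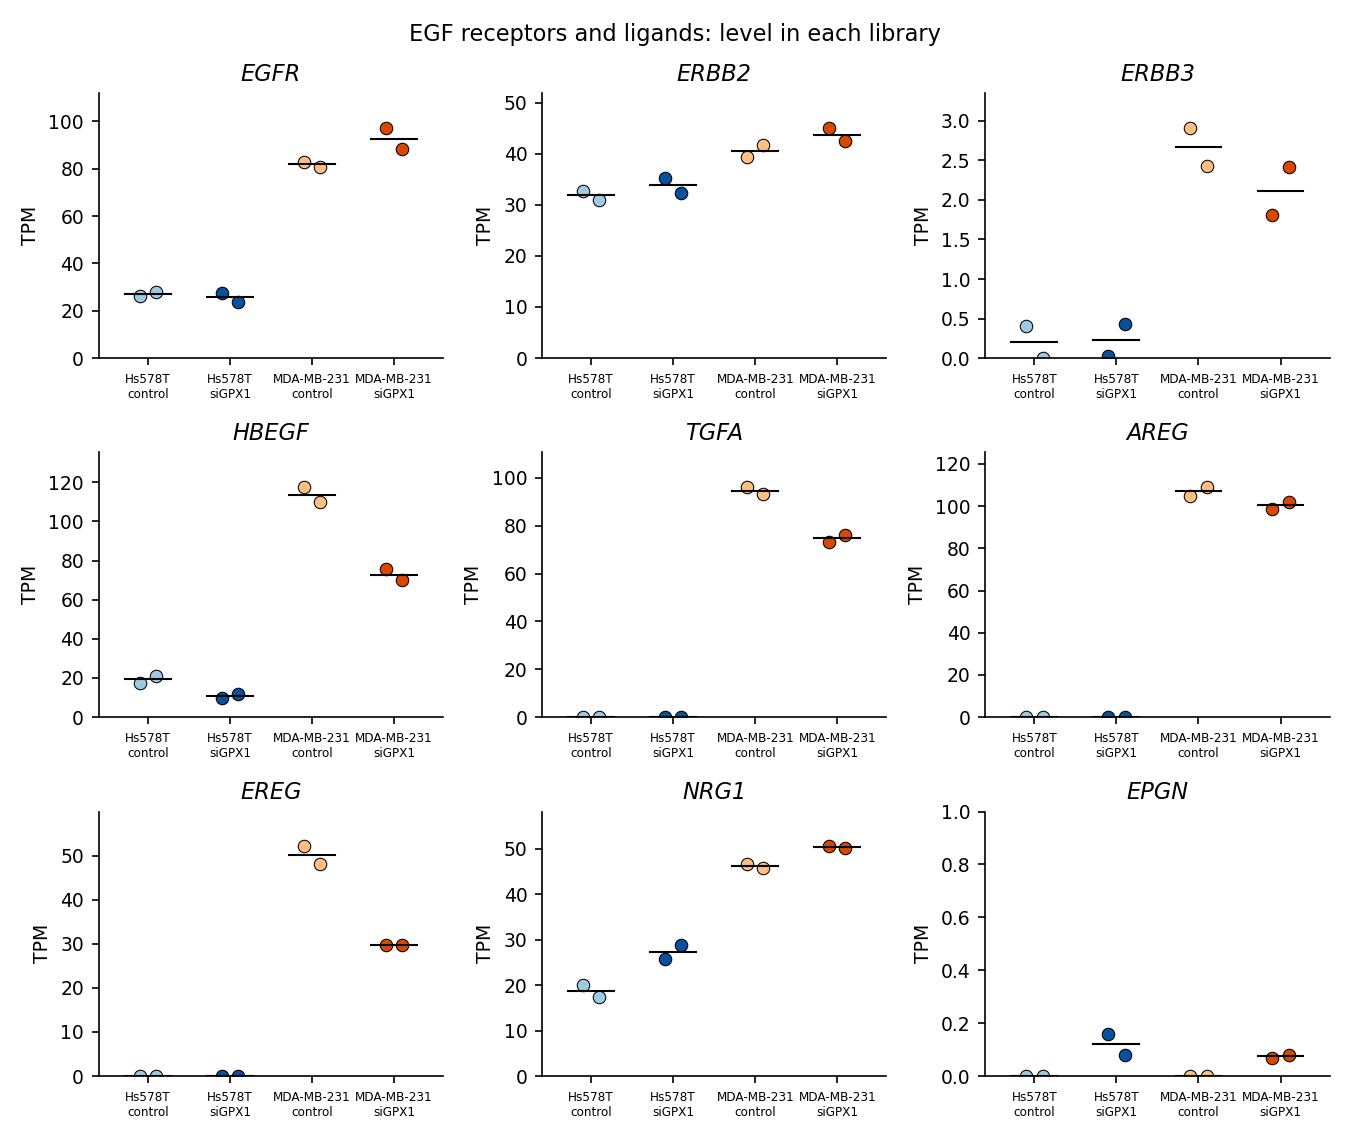
Level of each of the 9 genes in every library. The y axis is TPM, on a scale of its own for each gene and starting at 0, points are single libraries, bars are the means of 2 libraries, and the groups run from control Hs578T to siGPX1 MDA-MB-231. HBEGF is lower after depletion in both lines, TGFA, AREG and EREG are seen in MDA-MB-231 only, and NRG1 is higher after depletion in both.

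Counted over the set, 8 of the 9 genes passed the filter on low counts, 4 of them (ERBB3, TGFA, EREG, AREG) only through MDA-MB-231. In Hs578T 1 rose (NRG1) and 1 fell (HBEGF), where 28.6% of all tested genes rose, 22.1% fell and 50.7% did either. In MDA-MB-231 2 rose (EGFR and NRG1) and 3 fell (EREG, HBEGF and TGFA), where 20.7% of all tested genes rose, 21.9% fell and 42.6% did either. In Hs578T only EGFR, ERBB2, HBEGF and NRG1 held enough counts for a change to be measured. Over so few genes, neither count is a result about the set as a whole. On log2(TPM + 1) limma called 0 rises and 3 falls in MDA-MB-231. The test of a difference between the lines called 1 member, NRG1, against 17.0% of all genes, and only EGFR, ERBB2, HBEGF and NRG1 could be measured for it. Between the controls EGFR, ERBB2, HBEGF and NRG1 were higher in MDA-MB-231, where 43.0% of all genes were higher, 38.6% lower and 81.6% either. The 4 genes that passed the filter through that line alone were higher there too, as the filter made certain. That comparison shares its libraries with the depletion comparisons and sets 1 line against another, so any difference between the lines, culture included, is part of it.

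**Figure D2:**
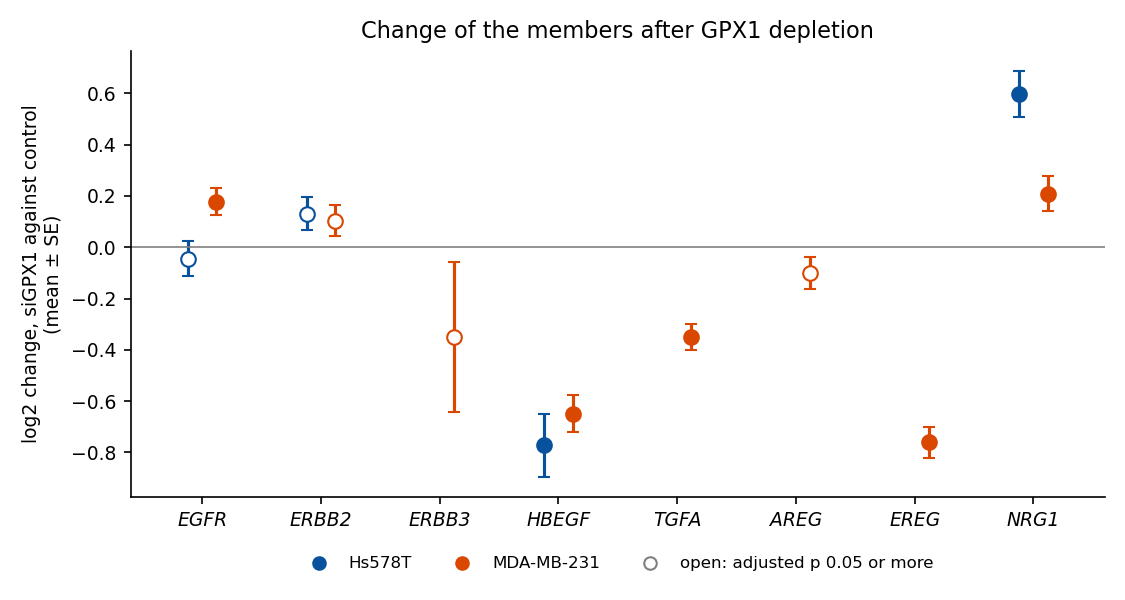
Log2 change of each gene after GPX1 depletion in Hs578T (blue) and MDA-MB-231 (orange), with the standard error. Filled points passed the test at an adjusted p under 0.05, and genes with too few counts in a line have no point there. HBEGF lies below 0 and NRG1 above 0 in both lines, while EGFR passes in MDA-MB-231 only.

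Because TPM is per length, the members can also be ranked against each other. In control Hs578T the order was ERBB2 (31.8 TPM), EGFR (27.0), then HBEGF (19.4) and NRG1 (18.7), whose libraries overlapped, with the other 5 at 0.2 or below. After depletion NRG1 (27.2) stood above HBEGF (10.9) and level with EGFR (25.7), whose libraries it overlapped. Control MDA-MB-231 ran from HBEGF (113.7 TPM) through AREG (107), TGFA (94.7), EGFR (81.8), EREG (50.1), NRG1 (46.2) and ERBB2 (40.5) to ERBB3 (2.67), with no overlap between neighbours. After depletion AREG (100.3) led, EGFR (92.7) came next, and TGFA (74.7) and HBEGF (72.9) overlapped. HBEGF, AREG and TGFA thus stood above EGFR in control MDA-MB-231, and of these AREG alone did so after depletion, whereas in Hs578T EGFR stood above HBEGF in both groups.

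The ligands of EGFR summed to very different totals in the lines. TGFA, EREG, AREG and HBEGF together gave 17.6 and 21.3 TPM in control Hs578T, almost all of it HBEGF, and 10.13 and 12.04 after depletion. In MDA-MB-231 the sum was 371 and 360.0 TPM in the controls and 278 and 277 after depletion. AREG made up 28.3 and 30.3% of the sum in the MDA-MB-231 controls and 35.6 and 36.7% after depletion, and EREG 14.1 and 13.3% against 10.7 and 10.7%. The share of TGFA moved little, from 25.9 and 25.9% to 26.4 and 27.4%. The ratio of EGFR to ERBB2 was 0.805 and 0.896 in control Hs578T and 2.11 and 1.94 in control MDA-MB-231.

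**Figure D3:**
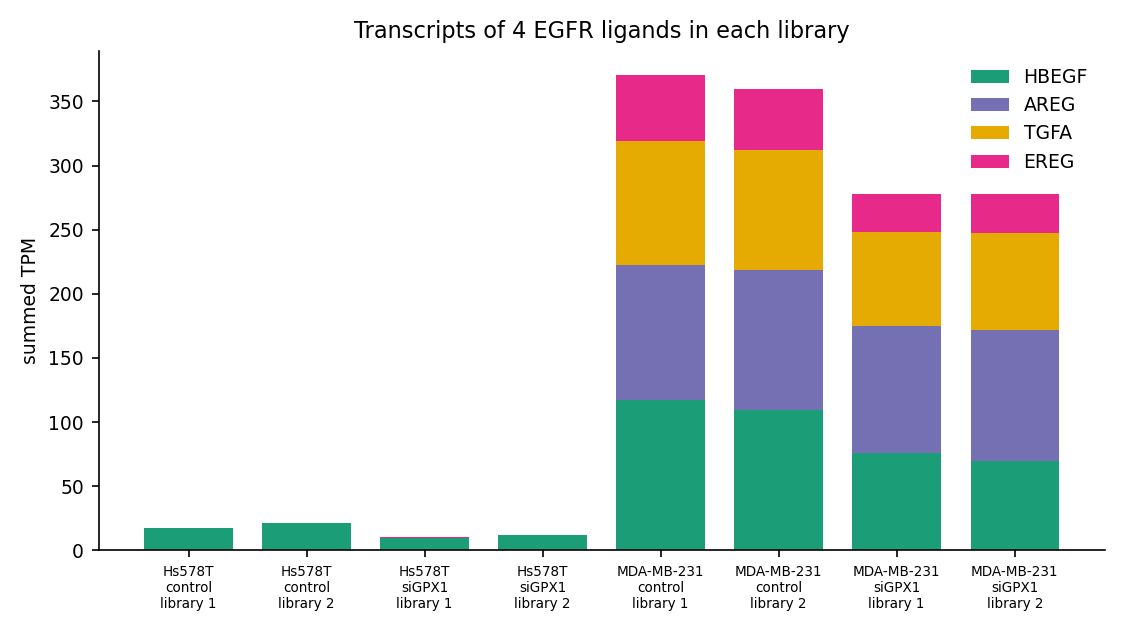
Summed TPM of HBEGF, AREG, TGFA and EREG in each of the 8 libraries, stacked by gene. The controls of MDA-MB-231 reach 371 and 360.0 TPM and its siGPX1 libraries 278 and 277, and Hs578T holds HBEGF almost alone.

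The 3′ untranslated regions (3′ UTRs) of the members were searched for sequences of 7 bases that in an earlier reading of these data went with lower expression after depletion, GGGCATC and GGCATCA, and for TTATTTATT, the nonamer of AU-rich elements that mark short-lived transcripts. The search was made on the transcript strand of GENCODE 29 transcripts, after the changes had been seen, and some of its matches are shown to place the letters in 2 receptors and in 2 ligands that fell. Capitals mark the match.
ERBB2: tgacttctgctGGCATCAagaggtgggagg
ERBB3: gggggagctagGGGCATCtgctccagggaa
TGFA: agatgatgtcTTATTTATTagatggataat
EREG: ttattaatttTTATTTATTtttcttgggaa

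ERBB2, ERBB3 and NRG1 held at least 1 of the 7-base sequences, and ERBB3 held both. HBEGF, EREG and TGFA, the members that fell, held neither, nor did EGFR, AREG or EPGN, so the pattern does not follow the split into receptors and ligands. Among 12470 tested genes with a 3′ UTR, 16.3% held GGGCATC or GGCATCA. Genes with either had a median log2 change of -0.15 after depletion in Hs578T, against 0.07 for genes with neither. In MDA-MB-231 the medians were -0.17 and 0.02. Of genes with either, 42.0% and 41.7% fell, against 19.5% and 19.2%. The sequences were picked for such a difference in these same data, so this contrast repeats their choice and is no support for a role. TTATTTATT was found in TGFA and EREG among the members and in 10.2% of genes, whose median log2 change was 0.03 (Hs578T) and 0 (MDA-MB-231) as fitted. Genes without it had medians of 0.04 and 0. Of genes with it 25.3% and 25.9% fell, against 22.9% and 22.5% of those without, so the nonamer went with little difference. A missing match says only that these letters are not in the annotated region.

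The other family members, none of them among the 9, were mostly scarce. NRG3, a neuregulin that binds ERBB4, rose 3.82-fold in Hs578T, from 35 and 21 counts to 100 and 98 (log2 change 1.93 ± 0.25; adjusted p = 2.06e-05), and was listed at 0 in all MDA-MB-231 libraries. NRG2, a further neuregulin, fell in Hs578T from 49 and 47 counts to 26 and 27 (log2 change -0.74 ± 0.26; adjusted p = 0.0264). EGF itself held 37, 32, 28 and 23 counts in the Hs578T libraries (controls first), 72, 80, 70 and 59 in those of MDA-MB-231, and passed in neither (adjusted p = 0.321 and 0.55). BTC, or betacellulin, held 5 to 13 counts per library, and NRG4 0 to 7.

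Ligand release is carried out by surface proteases of the ADAM family under the control of the rhomboid-like iRhoms. A list of 13 genes was tested that also holds BACE1, NRD1, FRMD8 and RHBDL2, which are neither ADAMs nor iRhoms, and the protease inhibitor TIMP3. TIMP3 is among the rises in both lines (log2 change 0.22 and 0.14), so a rise in this list need not mean more release. In Hs578T 6 rose and 2 fell, and in MDA-MB-231 6 rose and 4 fell, with a median log2 change of 0.05 and 0.14 against 0.04 and 0 for all genes tested, of which 28.6% rose and 22.1% fell in Hs578T, with 20.7% and 21.9% in MDA-MB-231. ADAM10, a sheddase of several EGFR ligands, rose 2.16-fold in Hs578T (log2 change 1.11 ± 0.04; adjusted p = 5.15e-12) and 1.44-fold in MDA-MB-231 (0.53 ± 0.04; adjusted p = 1.16e-08). ADAM17, the main sheddase of TGFA, AREG and HBEGF, rose in both (0.58 and 0.38). ADAM19, which can cleave neuregulin, rose by 0.62 and 0.34. The protease BACE1 fell in both lines (log2 change -0.50 and -0.40). RHBDF1, an iRhom that guides ADAM17 to the surface, fell by 0.42 and 0.56 on the same scale.

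Adaptors and proximal effectors carry the signal from the receptor to RAS and PI3K. Of 30, 5 rose and 10 fell in Hs578T, and 6 rose and 11 fell in MDA-MB-231, with medians of -0.03 and -0.05. The shares over all genes were 28.6% and 22.1% in Hs578T, then 20.7% and 21.9% in MDA-MB-231. PIK3CB, a catalytic subunit of PI3K, fell 3.73-fold and 3.15-fold (log2 change -1.90 ± 0.09 and -1.65 ± 0.09; adjusted p = 1.54e-10 and 3.95e-10). PIK3R2, a regulatory subunit of the same enzyme, rose 2.71-fold and 1.86-fold. CRKL, an adaptor with SH2 and SH3 domains, fell by 0.73 in Hs578T and 0.96 in MDA-MB-231 (log2).

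Negative regulators and trafficking genes include inhibitors of the receptor and also chaperones, recycling factors and a deubiquitinase, which need not lower its signal. Of 33 tested in a list of 34, 22 rose and 6 fell in Hs578T and 16 rose and 6 fell in MDA-MB-231, with medians of 0.18 and 0.11, where all tested genes gave 28.6% and 22.1%, and 20.7% and 21.9%. With Hs578T fitted alone, 14 rose and 6 fell. ERRFI1 (MIG6), a feedback inhibitor that binds the EGFR kinase domain, rose 2.02-fold in Hs578T and 2.75-fold in MDA-MB-231 (log2 change 1.01 ± 0.04 and 1.46 ± 0.04; adjusted p = 6.85e-12 and 1.39e-13). TRIB1, a pseudokinase that steers proteins to degradation, rose 2.86-fold and 1.29-fold. LRIG3, a membrane protein of the LRIG family, rose 1.43-fold and 1.56-fold. ERRFI1 carries the 7-base sequences ACTTCGA and TACTTCG in its 3′ UTR and ADAM10 carries TACTTCG. Both were searched because an earlier reading of these data had tied them to higher expression after depletion, and at least 1 is found in 2.999% of the genes searched. NRG1, NRG3, ADAM19, PIK3R2, TRIB1 and LRIG3, which also rose in at least 1 line, carry neither. The sequences were picked from these same data, so the matches are no support for a role.

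Genes whose transcription ERK activity drives, among them the ETS factors ETV4 and ETV5 and the feedback inhibitor SPRY4, fell more often than they rose. In Hs578T 10 of 16 fell and 4 rose, with a median log2 change of -0.60, and in MDA-MB-231 12 fell and 1 rose, with a median of -0.37. Of all genes tested, 22.1% fell and 28.6% rose in the first line and 21.9% and 20.7% in the second. Without MDA-MB-231 control library 2, and by DESeq2, 8 fell and 0 rose in that line, and with DESeq2 size factors in edgeR 8 fell and 2 rose. SPRY4 fell 2.84-fold in Hs578T and 1.42-fold in MDA-MB-231, ETV4 2.11-fold and 2.37-fold, and ETV5 2.13-fold and 1.64-fold. The 4 that rose in Hs578T were IER3 (log2 change 1.01), PHLDA1 (0.50), SPRY1 (0.52) and DUSP5 (0.51). In MDA-MB-231 DUSP5 rose (0.16), while IER3 (-0.12), PHLDA1 (-0.11) and SPRY1 (-0.35) fell. DUSP6 was not called in Hs578T (0.19) and fell in MDA-MB-231 (-0.45). FOSL1, a subunit of AP-1, fell 2.55-fold in Hs578T (log2 change -1.35 ± 0.05; adjusted p = 1.17e-11) and had a log2 change of 0.00 in MDA-MB-231 (adjusted p = 0.997). SPRY4 held GGGCATC and ETV5 GGCATCA in the 3′ UTR, where 16.3% of genes searched held at least 1 of the 2. ETV4, FOSL1, PIK3CB, CRKL and RHBDF1, which also fell in at least 1 line, held neither. The counts of rises and falls are descriptions of lists that carried no test of their own. Marker levels moved with depletion as well: the 8 epithelial markers summed to 357 to 364 TPM in control Hs578T and 942 to 1041 after depletion, and to 2625 to 2636 and 3845 to 3941 in MDA-MB-231, with KRT18 making most of the difference in Hs578T (322 to 949 TPM on average). KRT7 (10.5 to 7.82), KRT19 and CLDN4 averaged lower in Hs578T, as did CLDN4 (158 to 118) and ESRP1 in MDA-MB-231. The mesenchymal sum rose too, from 19409 to 19647 up to 22943 to 25396 in Hs578T. In MDA-MB-231 it went from 2397 to 2447 up to 3073 to 3106. ZEB1 averaged lower in both lines and SPARC in MDA-MB-231. The basal sum in Hs578T went from 144 to 157 up to 207 to 252. CDH1 stayed at or below 0.985 TPM on average in every group, and the part of these changes in the results above was not tested.

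**Figure D4:**
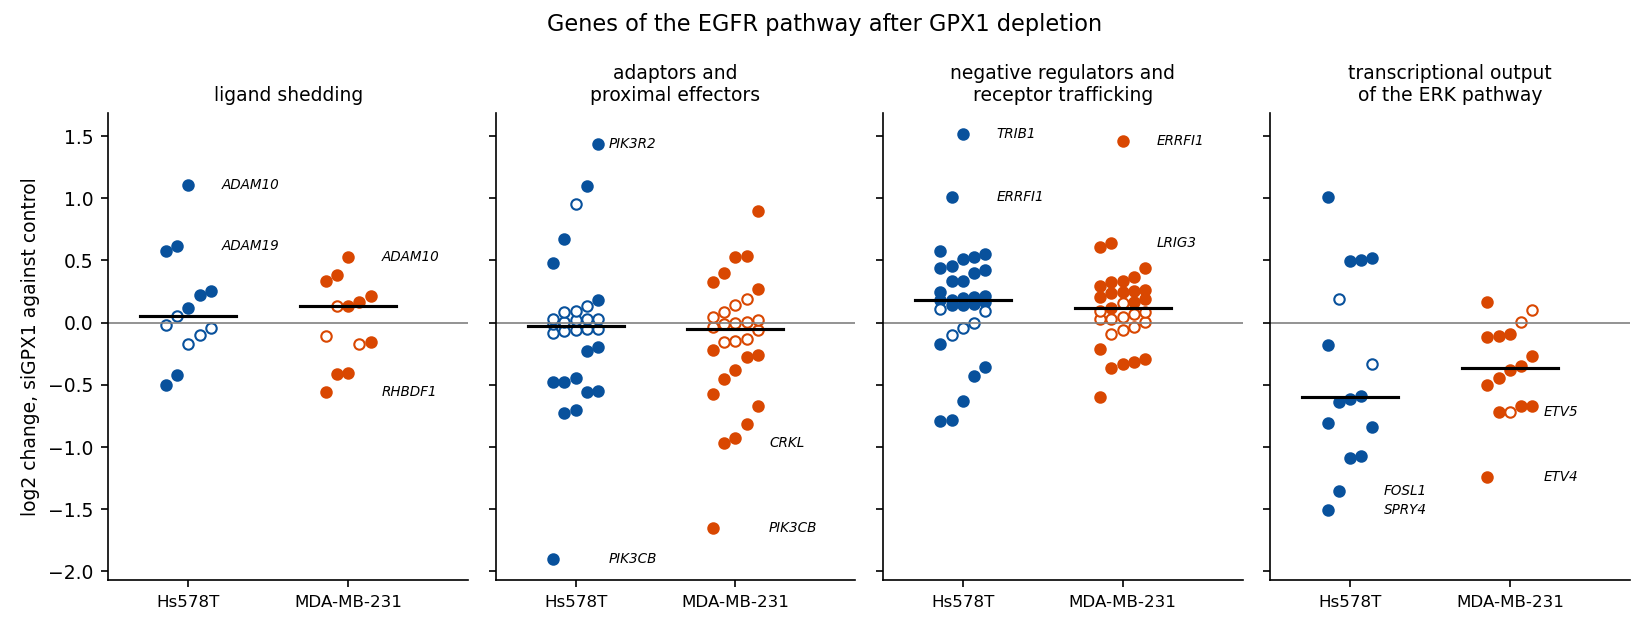
Log2 change after GPX1 depletion of each tested gene in the lists of ligand shedding (13 genes), adaptors and proximal effectors (30), negative regulators and trafficking (33) and transcriptional output of ERK (16), in Hs578T (blue) and MDA-MB-231 (orange). Filled points passed at an adjusted p under 0.05, black bars are medians, and labels name the genes chosen for each line; the ERK output medians lie at -0.60 and -0.37.

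Across the 8 libraries, the profiles most like that of EGFR, by root-mean-square distance of centred log2(TPM + 1) among 11159 genes, were CSDAP1 (0.0578), ZNF841 (0.0690) and ZFYVE28 (0.0732). ZNF841, for example, averaged 9.02 and 8.72 TPM in control and siGPX1 Hs578T and 30.6 and 34.4 in MDA-MB-231. For HBEGF, the ligand with the largest mean absolute log2 change over both lines (0.71), the nearest were SLC31A2 (0.160), FADS2 (0.182) and SPRY4 (0.214). FADS2 averaged 10.1 TPM in control Hs578T against 4.25 after depletion, and 59.5 against 32.7 in MDA-MB-231. The 8 libraries share 2 lines and 1 depletion, and the distances describe these libraries only.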

How the data were processed

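RNA was sequenced in 8 libraries of Hs578T and MDA-MB-231 cells. Per the submitters' processing notes, the authors checked reads with FastQC and quantified them with RSEM 1.2.12 on hg19; the aligner is not given in the sources used here. The deposited expected counts are RSEM's estimated reads per gene, and the deposited TPM values are those estimates per effective length. Expected counts were rounded (94.7 to 94.9% of detected ones were whole within 0.005). Groups came from sample titles; the cell line suffixes in the source labels, which run upward, were not used, and the labels name no batch.

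Genes passing edgeR's filterByExpr (14249) were scaled by TMM, and 1 mean was fitted for each group over the 8 libraries together, leaving 4 residual degrees of freedom. Calls used the quasi-likelihood test at a Benjamini-Hochberg adjusted p under 0.05. Standard errors are the log2 change over the square root of F. Folds need at least 10 counts in a group, and a group at 0 was set to 3 counts. Counting intervals cover counting error only. Besides all 9 members and GPX1, up to 2 genes per list and line with the largest change among those called at 5 CPM or more were named. ADAM17, TIMP3, BACE1, IER3, PHLDA1, SPRY1, DUSP5, DUSP6, KRT18 and the marker genes quoted were named after their values were seen. Members, lists and motifs were chosen with earlier results of these data known. Alternatives were DESeq2 size factors, DESeq2, an omitted or stricter filter (2 libraries at 5 CPM), a line alone, a replicate block, limma on log2(TPM + 1) or log2(TPM + 0.1), and each library left out; for the gene lists they were added after seeing the data. The steps were tested on simulated data. Software was R 4.3.3, edgeR 4.0.16, limma 3.58.1, DESeq2 1.42.0 and Python 3.11.15.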

Additional observations from a re-analysis of the deposited data

Results flagged for a closer look

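Changes that differed between the lines by the test of the difference itself (a quasi-likelihood test in edgeR, Benjamini-Hochberg adjusted) are given as the log2 change in MDA-MB-231 minus that in Hs578T. For NRG1, the ligand of ERBB3, the difference was -0.39 (adjusted p = 0.026), a rise of 0.60 in Hs578T against 0.21. ADAM10 differed by -0.58 (adjusted p = 4.15e-06) and ADAM19 by -0.28 (adjusted p = 0.00225), both rising more in Hs578T. The PI3K subunit PIK3R2 rose more in Hs578T, by a difference of -0.54 (adjusted p = 0.000245), and so did TRIB1, by -1.15 (adjusted p = 2.12e-05). CRKL fell more in MDA-MB-231, by -0.24 (adjusted p = 0.03). ERRFI1 rose more in MDA-MB-231, by 0.45 (adjusted p = 2.67e-05). Among the genes of ERK output, FOSL1 differed by 1.35 (adjusted p = 1.24e-08), SPRY4 by 1.004 (adjusted p = 0.000119) and ETV5 by 0.37 (adjusted p = 0.028), all 3 lower after depletion in Hs578T by more than in MDA-MB-231. The differences of NRG1, ADAM19, CRKL and ETV5 passed in 5, 10, 3 and 10 of 15 alternatives, with adjusted p reaching 0.331, 0.14, 0.506 and 0.0811. CRKL was -0.10 without MDA-MB-231 control library 1, ADAM19 -0.17 without siGPX1 library 1 of that line and ETV5 0.24 without siGPX1 library 2 of Hs578T. The differences of ADAM10, PIK3R2, TRIB1, ERRFI1, FOSL1 and SPRY4 passed in all 15.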

How the results depend on the processing

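With 2 libraries a group, each call rests on a spread shared over all 4 groups, and low counts of ERBB3, EPGN and, in Hs578T, TGFA, EREG and AREG set the limit of what could be measured. The spreads were unequal: the mean chi-square per gene between libraries was 3.91 in siGPX1 Hs578T and 1.93 in its controls. It was 1.35 and 1.69 in siGPX1 and control MDA-MB-231. With a line fitted alone, calls among all genes went from 7228 to 6538 in Hs578T and from 6065 to 6872 in MDA-MB-231. Members called in Hs578T (2) and between the control lines (8) stayed within 1.5 times of 2 and 8 in every alternative. The 8 include ERBB3, TGFA, EREG and AREG, whose higher level in MDA-MB-231 the filter made certain. The steadiness of the 8 is therefore no support for a difference between the lines. In MDA-MB-231, 5 members were called, against 3 with limma on log2(TPM + 1) and 2 on log2(TPM + 0.1). For the difference between the lines, 1 was called, against 0 with DESeq2, 2 on log2(TPM + 1), 0 on log2(TPM + 0.1), and 0 to 2 with a library left out. Of 380 alternative values for the members, 340 kept direction and side of the threshold, 22 lost the threshold, 5 gained it and 13 changed sign. The 340 include every control-line value of ERBB3, TGFA, EREG and AREG, which the filter fixed. Of 627 for list genes the numbers were 601, 22, 1 and 3. Among all genes, the split of differences between the lines moved from 900 higher and 1525 lower in MDA-MB-231 to 1251 and 999 with DESeq2 size factors.

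No change that had passed the test changed sign. EGFR in Hs578T ranged from -0.15 to 0.0427 with a library left out. The difference between the lines in ERBB2 (-0.03) was 0.0311 with DESeq2 size factors, 0.0302 with DESeq2, 0.0763 with the stricter filter, 0.0285 on log2(TPM + 1) and 0.0287 on log2(TPM + 0.1), and -0.0677 to 0.12 with a library left out. With a library left out, that of HBEGF ranged from -0.0037 to 0.28, that of ETV4 from -0.17 to 0.0019 and that of RHBDF1 from -0.15 to 0.0501. Called genes of ERK output in MDA-MB-231 were 13, against 8 with DESeq2 and 8 to 15 with a library left out; the other 7 list totals stayed within 1.5 times, although the 22 rises among negative regulators in Hs578T were 14 with that line fitted alone. The cause of these changes was not tested.

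Replicate numbers 1 and 2 did not pair the libraries (correlation of same-numbered deviations -0.03 in Hs578T and 0.06 in MDA-MB-231). With the replicate block the calls were 2, 5, 1 and 7 members for Hs578T, MDA-MB-231, their difference and the control lines, and ERBB2 between the control lines had an adjusted p of 0.0684. The 7 again include the genes that passed the filter through MDA-MB-231 alone. A setting that fits a line alone gives no difference between the lines.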
